A study of Mus musculus with 4 samples.

Results

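The 10 genes followed here belong to the Hippo pathway and were measured in the injured mouse pancreas: Yap1, Wwtr1, Tead1, Tead2, Lats1, Lats2, Ctgf, Cyr61, Ankrd1 and Amotl2. They were chosen by name, as rows of the array with a single gene symbol, and all 10 were measured, out of 22180 genes in all. The array annotation writes Ctgf as Ccn2 and Cyr61 as Ccn1. The study compared whole pancreas of 2 wild-type mice with whole pancreas of 2 mice null for Ifrd1, a gene for a transcriptional co-regulator. All mice were 8 weeks old and had received cerulein, a secretagogue that causes acute pancreatitis, at 100 µg/kg by intraperitoneal injection, 6 times per day on alternate days, and tissue was taken on day 5. Strain, sex, the design of the null allele and the kinship of the mice are not given in the sources used here, and uninjured pancreas is not analysed here.

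The Hippo pathway limits tissue growth through a kinase cascade. Lats1 and Lats2 are the kinases at its end: they phosphorylate the co-activators Yap1 and Wwtr1 (TAZ), which then stay in the cytoplasm and are degraded. When the kinases are inactive, Yap1 and Wwtr1 enter the nucleus, bind the DNA-binding factors of the TEAD family, here Tead1 and Tead2, and activate genes such as Ctgf, Cyr61, Ankrd1 and Amotl2. In pancreas, Yap1 protein is known mainly from duct, centroacinar and stellate cells and is known to increase in acinar cells during injury and acinar-to-duct metaplasia. The pathway acts largely through phosphorylation and location of proteins, which transcript levels do not show.

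The TEAD family recognises GGAATG, read as CATTCC on the other strand. This motif was searched on both strands in the 250 bases before each annotated start site (RefSeq, GRCm38.p6). A promoter was found for 8 of the 10 members, all but Tead1 and Ctgf, and 5 of the 8 held the motif, against 14.4% of 27025 genes. These are the co-activator genes Yap1 and Wwtr1 and the target genes Cyr61, Ankrd1 and Amotl2, and the windows of Tead2, Lats1 and Lats2 did not hold these letters. The list was chosen by name and includes known targets of TEAD factors. A share above that of all genes was therefore likely beforehand, and it was not tested. The 5 windows that held the motif are shown. Of their genes, Yap1, Wwtr1 and Cyr61 were lower on both Ifrd1 null arrays, while Ankrd1 and Amotl2 overlapped between genotypes. A link between motif and level was not tested. Capitals mark the motif. Each window is printed in the direction of its gene, and it lies on the minus strand except for Amotl2. The windows are chr9:8004597-8004846 for Yap1, chr3:57575911-57576160 for Wwtr1 (the first of 2 overlapping start sites), chr3:145649986-145650235 for Cyr61, chr19:36119845-36120094 for Ankrd1 and chr9:102717554-102717803 for Amotl2.
Yap1: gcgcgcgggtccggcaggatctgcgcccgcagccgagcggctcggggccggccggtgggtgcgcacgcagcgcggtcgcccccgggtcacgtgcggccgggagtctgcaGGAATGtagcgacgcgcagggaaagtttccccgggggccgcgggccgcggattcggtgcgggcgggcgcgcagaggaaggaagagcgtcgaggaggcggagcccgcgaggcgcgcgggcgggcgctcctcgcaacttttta
Wwtr1: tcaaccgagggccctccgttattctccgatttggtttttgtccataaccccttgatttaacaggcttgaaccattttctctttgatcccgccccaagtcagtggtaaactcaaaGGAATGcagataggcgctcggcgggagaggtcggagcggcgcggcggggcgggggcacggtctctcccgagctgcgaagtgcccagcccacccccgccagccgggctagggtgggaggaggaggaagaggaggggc
Cyr61: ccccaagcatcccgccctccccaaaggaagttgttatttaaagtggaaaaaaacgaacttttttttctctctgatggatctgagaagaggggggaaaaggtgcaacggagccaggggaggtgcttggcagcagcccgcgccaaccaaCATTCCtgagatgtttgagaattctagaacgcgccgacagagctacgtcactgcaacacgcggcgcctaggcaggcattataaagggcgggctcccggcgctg
Ankrd1: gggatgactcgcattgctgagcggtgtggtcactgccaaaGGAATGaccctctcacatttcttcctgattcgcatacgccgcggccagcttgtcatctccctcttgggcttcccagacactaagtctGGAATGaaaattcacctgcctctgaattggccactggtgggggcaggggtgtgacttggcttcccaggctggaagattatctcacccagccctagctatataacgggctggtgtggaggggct
Amotl2: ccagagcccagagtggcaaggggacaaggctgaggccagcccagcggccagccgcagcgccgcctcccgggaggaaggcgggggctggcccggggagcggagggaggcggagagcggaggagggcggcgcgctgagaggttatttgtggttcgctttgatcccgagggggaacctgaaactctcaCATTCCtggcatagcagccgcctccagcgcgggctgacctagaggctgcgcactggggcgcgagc

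Ankrd1 held the motif at 2 places, starting 210 and 123 bases before its start site, and the other windows held it at 1 place. It began 141 bases before the start of Yap1, 136 before that of Wwtr1, 103 before that of Cyr61 and 65 before that of Amotl2. In Cyr61 and Amotl2 the match was on the opposite strand. The AP-1 motif TGANTCA, searched on both strands as was TATAAA, was in none of the 8 members' promoters (0 of 8) and in 7.82% of all genes. The TATA motif TATAAA was in that of Cyr61 alone, 25 bases before the start, and in 14.3% of all genes. It did not overlap the TEAD motif there. A match of letters is a description of the sequence and no evidence of binding in this tissue.

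The arrays had medians between 4.08 and 4.15 on the log2 scale, and every member lay above the median of each of the 4 arrays. The acinar markers Cpa1, Cela1 and Ctrb1 were near the top of the range, as with Cpa1 at 13.4 to 13.7. The other measured acinar markers, Ptf1a, Bhlha15 and Rbpjl, lay lower, between 7.31 and 9.87. Ifrd1 read 9.04 and 9.07 on the wild-type arrays but 6.99 and 7.09 on the null arrays, a difference of -2.02 ± 0.11 (SE), in the direction of the labels (limma adjusted p = 0.138). The null arrays also carried Xist at 10.2 and 9.58, against 2.56 and 3.54 in wild type, and Y-linked Uty at 2.25 and 2.36, against 6.41 and 6.40. Genotype and sex as read from these genes cannot be told apart in any value below. Genes above the median level are here those whose mean over the 4 arrays was above the median of all genes. Among them, with all members included, 67.3% were lower in the null, so a lower value is the more common outcome at these levels. That share was 55.8% with quantile normalization applied again, 53.7% with cyclic loess and 76.7% after median centring of the arrays. Of all genes 52.7% were lower. In bulk tissue, fewer cells of a type and less RNA per cell cannot be told apart.

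None of the 10 members differed between genotypes past the threshold of limma adjusted p under 0.05. Across all genes 1 gene passed (0.00451%), Y-linked Uty (limma adjusted p = 0.0206). Adjusted p-values of the members ran from 0.721 to 0.911. Of the 10, 6 members were lower in the null and 4 higher, and their median difference was -0.14, beside -0.07 over all genes above the median level and -0.01 over all genes. The members' median was -0.09 with quantile normalization and with cyclic loess, -0.19 with arrays centred on their medians and -0.02 without wild type 2. Wild-type and null arrays did not overlap for 3 members, Cyr61, Wwtr1 and Yap1, all of them lower in the null. Such a pattern was found in 19.7% of all genes and in 29.1% of genes above the median level, so 3 of 10 is near the background. No member (0 of 10) was higher on both null arrays, a pattern seen in 16.1% of all genes and 8.82% of those above the median level. An exact permutation test of 2 arrays against 2 cannot go below p = 0.333, so none is given.

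**Figure D1:**
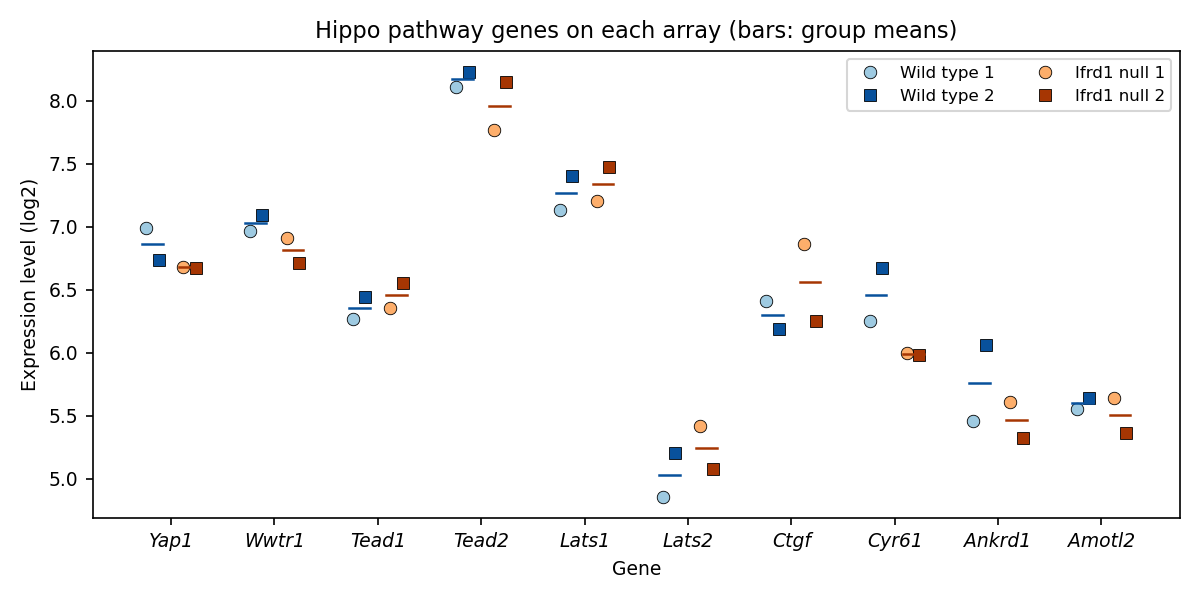
Expression level (log2, vertical axis) of each of the 10 Hippo pathway genes on the 4 arrays, with bars at the group means (n = 2). For Yap1, Wwtr1 and Cyr61 both null arrays lie below both wild-type arrays, and for the other 7 genes the groups overlap.

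The co-activators had lower values on both null arrays, and neither passed the test. Yap1, the main effector of the pathway, stood at 6.99 and 6.74 in wild type and at 6.68 and 6.67 in the null (log2). Both null arrays were below wild type, but wild type 2 was only just above them. The difference was -0.19 ± 0.13 (SE), a 1.14-fold lower level with a 95% interval from -0.54 to 0.16. The limma p was 0.216 and the adjusted p = 0.777. The gap between the wild-type arrays, 0.25, was wider than the difference between genotypes. A dimmer row for Yap1, below the array median on every array, read 3.69 and 3.74 in wild type and 3.38 and 3.57 in the null, also with no overlap.

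Wwtr1, the paralog of Yap1, stood at 6.97 and 7.09 in wild type and at 6.91 and 6.71 in the null. Null 1 was close to wild type 1, and null 2 was the lowest of the 4. The difference was -0.22 ± 0.13 (SE; 95% interval -0.56 to 0.12; limma adjusted p = 0.761). It exceeded the gap between the arrays within each genotype, 0.13 and 0.20, a pattern found in 23.7% of all genes and 26.0% of genes above the median level. Wwtr1 and Cyr61 were the 2 members that showed it.

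The TEAD factors overlapped between genotypes. Tead1 was at 6.26 and 6.44 in wild type and at 6.35 and 6.56 in the null, a difference of 0.10 ± 0.13 (95% interval -0.25 to 0.46). Tead2 was at 8.11 and 8.23 in wild type and at 7.77 and 8.15 in the null, a difference of -0.21 ± 0.17 (95% interval -0.65 to 0.24). Null 1 held the lowest Tead2 value, and null 2 lay between the wild-type arrays. Without null 1 the Tead2 difference was -0.02, and without null 2 it was -0.40. Adjusted p-values were 0.850 for Tead1 and 0.788 for Tead2.

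The kinases that restrain Yap1 and Wwtr1 overlapped as well. Lats1 was at 7.13 and 7.40 in wild type and at 7.21 and 7.47 in the null, a difference of 0.07 ± 0.16 (95% interval -0.36 to 0.50; limma adjusted p = 0.911). Lats2, which is itself a Yap1 target as well as a kinase, was at 4.86 and 5.21 in wild type and at 5.41 and 5.07 in the null. The difference was 0.21 ± 0.19 (95% interval -0.30 to 0.73; limma adjusted p = 0.805). Null 1 was the highest and wild type 1 the lowest, with the remaining arrays between them.

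Cyr61 had the smallest p-value of the members. It encodes a secreted matrix protein of the CCN family that binds integrins. Its level was 6.25 and 6.67 in wild type and 6.00 and 5.98 in the null, so both null arrays were below wild type and close to each other. The difference was -0.47 ± 0.17 (SE), a 1.39-fold lower level with a 95% interval from -0.94 to -0.01. The limma p was 0.0479 and the adjusted p = 0.721, so Cyr61 did not pass over all genes. An unadjusted p under 0.05 with a lower level was found in 3.63% of all genes and in 5.41% of genes above the median level, and Cyr61 was the 1 member of 10 to show it. No member (0 of 10) had such a p with a higher level, found in 3.27% of all genes and 1.23% of those above the median. The unadjusted p of Cyr61 was under 0.05 in 8 of 13 settings. It was not with quantile normalization, with cyclic loess, or without wild type 2, null 1 or null 2, where the limma p ran from 0.0539 to 0.212. Without wild type 2 the difference was -0.26. Of the other members, Yap1 without wild type 2 and Tead2 without null 2 had an unadjusted p under 0.05, each in 1 of 13 settings.

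Ctgf, the other CCN family target and a matrix protein of fibrotic tissue, overlapped between genotypes. Its level was 6.41 and 6.19 in wild type and 6.86 and 6.25 in the null. Null 1 was highest, while null 2 lay between the wild-type arrays. The difference was 0.26 ± 0.24 (SE; 95% interval -0.38 to 0.90; limma adjusted p = 0.807), and without null 1 it was -0.05. A dimmer Ctgf row, below the array median on each array, read 3.29 and 3.31 in wild type and 2.82 and 3.61 in the null.

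The remaining targets overlapped between genotypes. Ankrd1, a nuclear and sarcomeric ankyrin repeat protein, was at 5.46 and 6.06 in wild type and at 5.60 and 5.32 in the null. Wild type 2 stood above the other 3 arrays. The difference was -0.29 ± 0.24 (95% interval -0.95 to 0.36; limma adjusted p = 0.791), and without wild type 2 it was 0.01. Amotl2, an angiomotin-like junction protein that is both a target and an inhibitor of Yap1, was at 5.56 and 5.64 in wild type and at 5.64 and 5.36 in the null. Its difference was -0.10 ± 0.14 (95% interval -0.47 to 0.27; limma adjusted p = 0.866). Wild type 2 and null 1 held the same deposited value for Amotl2. Such a repeat on at least 2 arrays was found in 14.1% of all genes.

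**Figure D2:**
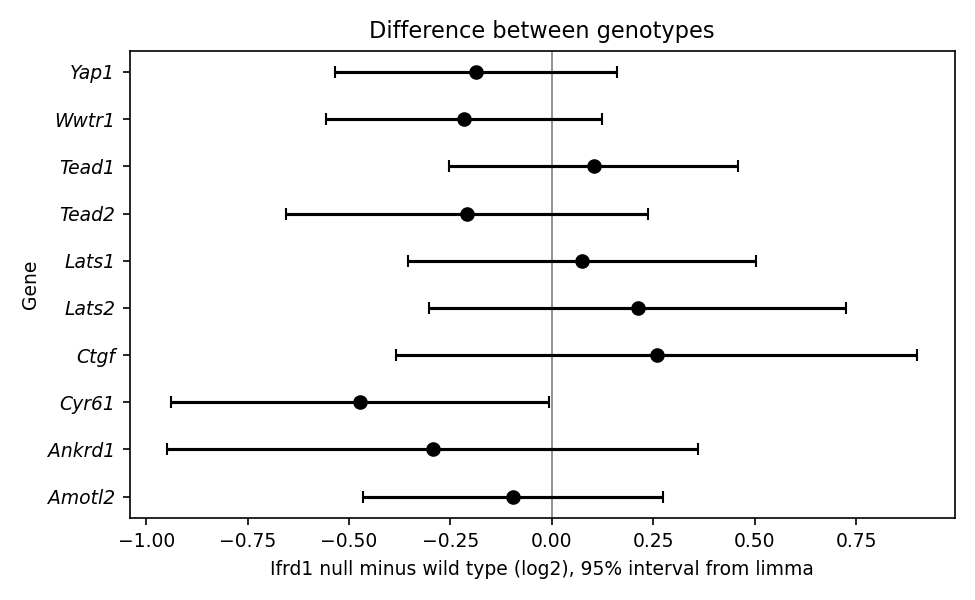
Difference between genotypes for each Hippo pathway gene (Ifrd1 null minus wild type, log2, horizontal axis), with 95% intervals from limma (n = 2 per group). The interval of Cyr61, -0.94 to -0.01, is the only 1 of the 10 that does not cross 0 with all arrays and the values as deposited, before adjustment over all genes, and its p was under 0.05 in 8 of 13 settings.

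The intervals set what these arrays could show. The widest, those of Ankrd1 and Ctgf, reached from 0.52 to 1.28 times and from 0.77 to 1.87 times the wild-type level. The narrowest, that of Wwtr1, reached from 0.68 to 1.09 times. A missed threshold therefore does not show that the levels were equal.

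Of 64 further genes on 4 lists, 56 were measured, of which 35 were lower and 21 higher in the null, with a median difference of -0.07. None passed over all genes (0 of 56), and limma p was under 0.05 without adjustment for 2, Ptpn14 and Fjx1, both lower, where 3.63% of all genes had such a p and a lower level. The groups did not overlap for 16 lower and 8 higher genes of the 56, beside 19.7% and 16.1% of all genes and 29.1% and 8.82% of genes above the median level, so these counts are near the background.

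Of the kinase core and the kinases beside it, 11 of 15 listed genes were measured, 8 lower and 3 higher, with a median of -0.15 and none at an unadjusted p under 0.05 (0 of 11). The smallest p-values were those of Taok2, a kinase that can activate the cascade from above, at -0.20 ± 0.10 (limma adjusted p = 0.747), Map4k4, which phosphorylates the Lats kinases, at -0.25 ± 0.17 (limma adjusted p = 0.777), and Map4k1, a kinase of blood cells, at 0.18 ± 0.14 (limma adjusted p = 0.782). Taok2 stood at 7.16 and 7.13 in wild type and at 6.92 and 6.98 in the null, with no overlap. For Map4k4, null 2 at 7.59 stood apart from the other arrays, at 8.00 to 8.04.

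Of 24 measured upstream and junction regulators, 19 were lower, with a median of -0.13. On all arrays, 23 of the 24 lay above the array median. Of genes above the median level, a set defined by the mean over the arrays, 67.3% were lower. Ptpn14, a phosphatase that binds and retains Yap1 and is also a Yap1 target, had the largest difference of the list. It stood at 6.96 and 7.14 in wild type and at 6.74 and 6.45 in the null, with no overlap. The difference was -0.46 ± 0.15 (95% interval -0.86 to -0.05; limma adjusted p = 0.721). Csnk1e, a casein kinase that marks Yap1 for degradation, was at -0.40 ± 0.15 (limma adjusted p = 0.722), and Tjp1, the tight junction scaffold ZO-1, at -0.27 ± 0.12 (limma adjusted p = 0.729).

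The other TEAD factors and cofactors had a median of 0.07, with 2 of 6 lower. Tead4 was at 4.87 and 5.04 in wild type and at 5.21 and 5.32 in the null, higher on both null arrays, a difference of 0.31 ± 0.12 (95% interval -0.02 to 0.63; limma adjusted p = 0.722). Vgll3, a TEAD cofactor, was at -0.26 ± 0.15 (limma adjusted p = 0.760). Vgll1 was at -0.25 ± 0.19 (limma adjusted p = 0.782), but it lay below the array median on all 4 arrays, where signal above background is not shown.

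The other YAP and TAZ target genes did not move one way. Of 17 listed, 16 were measured, 7 lower and 9 higher, with a median of 0.03. The sign of that median turned with arrays centred on their medians (-0.01), among genes above the median level and with a gene's rows averaged (-0.0023 each), and without wild type 2 (-0.0072). It was -0.13 without null 1 and 0.13 without null 2. Fjx1, the homolog of a fly Golgi kinase that acts on the Fat and Dachsous cadherins, was at 7.03 and 7.11 in wild type and at 6.76 and 6.80 in the null, a difference of -0.30 ± 0.10 (limma adjusted p = 0.721). Tgfb2, a growth factor, was at -0.28 ± 0.12 (limma adjusted p = 0.728). Ptpn14 is on this list too.

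**Figure D3:**
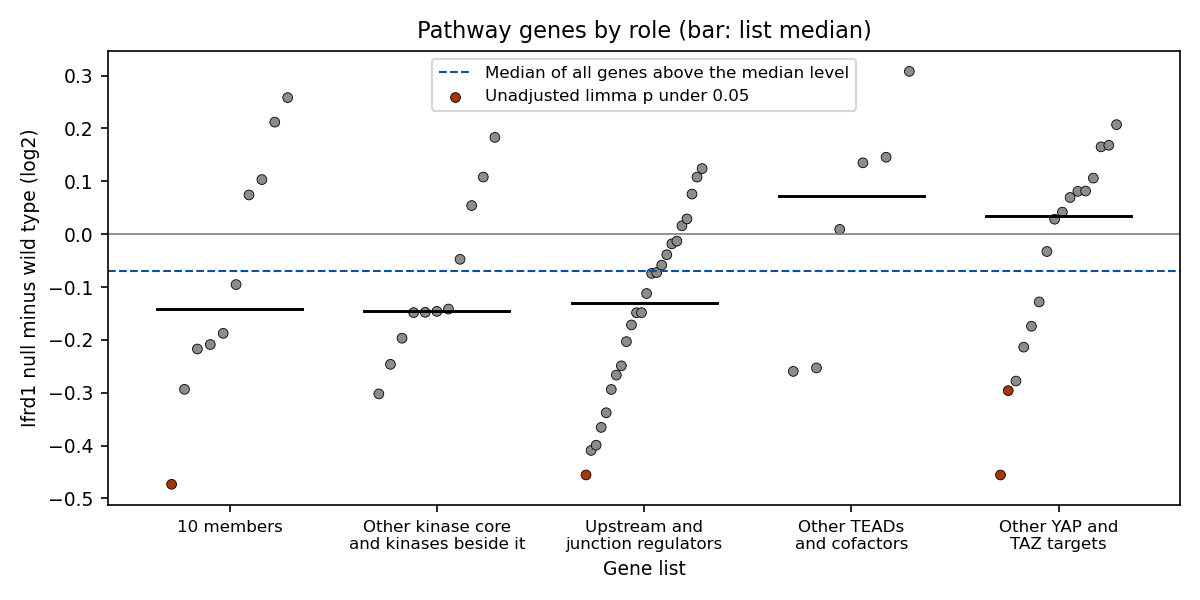
Difference between genotypes (log2, vertical axis) for each measured gene of the 10 members and of 4 further pathway lists, with bars at list medians and a dashed line at the median of all genes above the median level (-0.07). Coloured points have an unadjusted limma p under 0.05: Cyr61, Ptpn14 (on 2 lists) and Fjx1.

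The pathway genes whose pattern over the 4 arrays was nearest to that of Yap1 were Taok2 and F3, tissue factor, a further target on the list. Their root mean square distance from it was 0.08 log2 units each, after each gene's own mean was subtracted. Those nearest to Ctgf were Nuak2, a kinase, at 0.10 and Asap1, a regulator of Arf proteins, at 0.11. These distances were not scaled to the size of a gene's changes. A gene that hardly moved over the arrays can therefore rank as near, and no reference distance was computed.

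Markers of cell types moved between arrays, and their part in the values above was not tested. Null 1, where Ctgf and Lats2 were highest, held Col1a1 at 10.98, against 9.88 to 10.40 on the other arrays. Col1a2, Col3a1, Lum and Thy1 were also highest there. Pdgfra and Pdgfrb were lower on null 1, at 8.01 and 7.11, than on either wild-type array (8.24 and 8.20, 7.37 and 7.29). Dcn on null 1 lay between the wild-type arrays. The 8 stellate cell and fibroblast markers, 5 lower and 3 higher in the null, had mean levels of 8.97 and 8.88 in wild type and 9.12 and 8.55 in the null. Mesothelial markers were also higher on null 1, with a mean level of 6.45 over 5 markers against 6.07 to 6.15 on the other arrays. B and plasma cell markers stood far apart on the null arrays, at 6.88 and 4.81 over 4 markers, against 5.72 and 5.61 in wild type. Adipocyte markers were at 6.88 and 5.41 in the null over 5 markers, against 5.88 and 6.28 in wild type. Null 2, where Yap1, Wwtr1, Cyr61, Ankrd1 and Amotl2 were lowest but Tead1 and Lats1 highest, had the lowest macrophage markers. The mean level of these markers was 8.22 there over 6 markers, against 8.75 to 8.85 on the other arrays. Yap1 and Cyr61 were nearly as low on null 1.

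Several marker lists had mostly lower members in the null, as did 67.3% of genes above the median level. Duct markers were lower in the null for 5 of 6, with mean levels of 7.84 and 7.86 in wild type and 7.63 and 7.58 in the null. Krt19, a duct keratin with the largest difference of the list, was at 8.11 and 8.05 in wild type and 7.59 and 7.39 in the null. Krt7, another duct keratin, and Muc1 overlapped between genotypes, at -0.06 and -0.15. Sox9 was the 1 duct marker with a higher mean in the null, at 0.19, and it overlapped too. Endothelial markers were lower for 6 of 7, with mean levels of 6.35 and 6.34 in wild type and 6.17 and 6.12 in the null. All duct and endothelial markers were above the array median on all arrays. Macrophage markers were lower for 6 of 6 (median -0.31), smooth muscle markers for 5 of 6 (-0.31) and islet markers for 3 of 4 (-0.30). T and NK cell markers went the other way, with 6 of 6 higher in the null and a median of 0.43. Only 2 of the 6 lay above the array median on all arrays, so the size of that difference is uncertain. Among the 6 markers, Lat, at 4.70 and 4.44 in the null, and Nkg7, at 5.05 and 4.95, were above wild type on both null arrays. Neither passed over all genes (limma adjusted p = 0.721 each). Lat, at 4.05 and 3.95 in wild type, lay below the array median there. Of the 7 intestinal epithelial markers, wild type 1 held the highest values of Lgals4, at 7.24 against 3.97 to 4.31 on the other arrays, Agr2, at 6.06 against 3.04 to 3.998, Cdh17, at 4.98 against 2.95 to 3.29, and Vil1, at 5.46 against 4.02 to 4.88. Cdx1, Cdx2 and Fabp2 lay below the array median on every array. Smooth muscle markers had a mean level of 6.29 on wild type 1 over 6 markers, against 5.36 to 5.88, though Tagln was highest on null 1. Without wild type 1, the difference was -0.69 for Cyr61, -0.59 for Ankrd1, -0.28 for Wwtr1 and -0.06 for Yap1. The Yap1 difference was thus smaller without wild type 1, but without wild type 2 it was -0.31. The part of the intestinal and smooth muscle markers in these values was not tested.

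**Figure D4:**
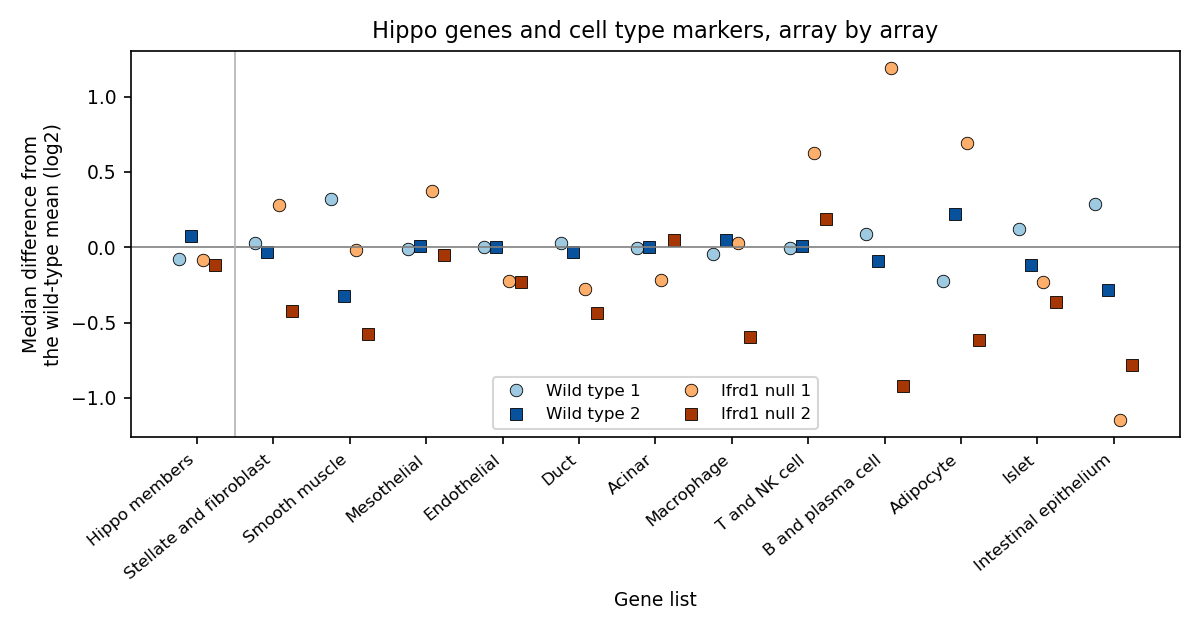
Median difference from the wild-type mean (log2, vertical axis) over the genes of each list on each array, for the 10 Hippo pathway genes and 12 lists of cell type markers. The median of the Hippo genes stays within -0.12 and 0.07, while that of B and plasma cell markers ranges from -0.92 to 1.19. Of the Hippo genes 6 were lower and 4 higher in the null, so their median does not show how far single genes moved.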

How the data were processed

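Per the labels, total RNA of whole pancreas, biotin-labelled, was run on Affymetrix arrays. The values are the authors' deposited values, taken as log2 levels because they lie between 0.218 and 13.9. Scale, background correction, probe summary and normalization are not given in the sources used here, and precision is limited by how few arrays there are. Of 41345 rows, 23521 had 1 gene symbol, 1814 had several and 16010 had none. A gene was represented by its row with the highest mean, which gave 22180 genes, with no filter on dim rows. Ifrd1 null was compared with wild type across all genes with limma 3.58.1 in R 4.3.3 (lmFit and eBayes, two-sided, Benjamini-Hochberg adjustment). The step was run on simulated data with changes larger than that of any member, so it was not tested at the size of the members' differences. Errors are limma's standard errors. The labels call the samples biological replicates and give no shared litter or day, and the same-numbered arrays' deviations from their group means correlated at -0.0352 across genes. Members and lists were chosen with earlier results of these data known. Of the other pathway genes, the text names the 3 with the smallest p of each list and the 2 nearest to Yap1 and Ctgf. Listed genes are not analysed here where the annotation gave no row with a single symbol. Alternatives covered scaling, the variance model, filters, rows per gene, the replicate block and leaving out each array.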

Additional observations from a re-analysis of the deposited data

How the results depend on the processing

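No member passed limma's adjusted threshold (0 of 10) in the main analysis or in any of 12 alternatives, where adjusted p-values of the members ran from 0.476 to 1. The variance model, the filters and the replicate block cannot change a member's difference. Averaging rows can change only those of Yap1 and Ctgf, the members with a dimmer row. Of 120 member differences under an alternative, with those that could not change counted in, 115 kept their sign. The 5 that turned did so with an array left out: Lats1 without wild type 1 (-0.0585) and without null 2 (-0.0589), in a range up to 0.207; Ankrd1 without wild type 2 (0.0074), in a range down to -0.595; Ctgf without null 1 (-0.0463), in a range up to 0.563; and Amotl2 without null 2 (0.0421), in a range down to -0.233. With an array left out, the median over the members ran from -0.120 to -0.0229, and that of the other YAP and TAZ targets from -0.132 to 0.126. Over all genes, 1 gene passed, Y-linked Uty. The count was 4 with quantile normalization, 4 with cyclic loess, 5 with arrays centred on their medians, 5 with trend and robust eBayes, 4 with the replicate block, 0 among genes above the median level, 0 without genes on X or Y and 0 with any array left out. Limma p was under 0.05 without adjustment for 1532 genes, 806 lower and 726 higher, and for 884, 1456 and 1301 to 2232 under those last alternatives. With arrays centred on their medians the split was 1111 lower and 443 higher. The numbers 1 and 2 were not shown to pair the arrays, and the replicate block called no member (0 of 10). The causes of these shifts were not tested. No signal over background was used, so genes below the array median have no exact difference.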
